A study of Rattus norvegicus with 12 samples.

Results

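The glycosyltransferases and sulfotransferases that build mucin and surface glycans were followed in the colon of rats whose feed was high or normal in protein. Members were the gene probes whose array name began with B3gnt, B4gal, B3gal, Galnt, St3gal, St6gal, St8sia, siat, Fut, Gcnt, Mgat or Chst. This gave 116 probes for 97 genes among the 30367 distinct probes of the array. Probes flagged good on 6 or more of the 12 arrays were kept, which left 58 probes for 54 genes among 13204 kept probes. Both groups were male Wistar rats weighing 180 to 200 g, fed for 6 weeks, with 6 arrays per diet. The diets differed in protein content, and the composition of the feeds and the age of the animals were not given in the sources used here. The labels call the tissue colonic epithelium and do not say where along the colon each sample was taken, or that each array came from a separate animal, so p-values measure the spread between these samples. Each array measured 1 Cy3-labelled sample, and levels are quantile-normalised log2 intensities unless stated otherwise.

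Mucins are large secreted or membrane-bound proteins whose serines and threonines carry chains of sugars. GALNT enzymes start these chains with N-acetylgalactosamine, C1galt1 and GCNT enzymes form and branch the core, and B3GNT and B4GALT enzymes extend it with N-acetylglucosamine and galactose. Sialyltransferases, fucosyltransferases and carbohydrate sulfotransferases then cap or modify the chain, while MGAT enzymes branch the glycans attached to asparagine. In the colon the finished chains form much of the mass of the mucus layer and bind bacteria and lectins. Hox genes are transcription factors expressed in bands along the body axis, and Hoxb13 belongs to the most posterior group, which the distal colon expresses.

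The arrays differed widely in both Hox genes. On 6 arrays (normal protein replicates 1 and 2, high protein replicates 1, 2, 5 and 6) Hoxb13 lay between 11.996 and 12.56. On the other 6 it lay between 5.83 and 9.32. Hoxb6 lay between 10.82 and 10.95 on 3 of those 6 (normal protein replicate 6, high protein replicates 3 and 4) and between 6.51 and 7.49 on the remaining arrays of the series. Normal protein replicates 3, 4 and 5 were low in both, with Hoxb13 at 8.26, 5.83 and 9.32, and no high-protein array was low in both. These 3 sets are named below by their Hox levels. The limits between them, 11 for Hoxb13 and 10 for Hoxb6, were set after the levels were seen, so differences between the sets are given as values and the tests use the Hox level itself. The Hoxb13-high arrays did not overlap the other 6 for 9 of the 58 member probes, Chst5 included, and for 3.15% of kept probes. The Hoxb6-high arrays did not overlap the other 9 for 7 member probes and for 4.35% of kept probes. Diet and Hox level are partly entangled, since the Hoxb13-high arrays comprised 4 high-protein and 2 normal-protein samples. Each of 3 slides held 2 arrays of each diet. Between 42.67% (normal protein replicate 3) and 55.86% (high protein replicate 3) of an array's gene spots carried the good flag.

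The 300-base promoter windows of 2 genes are shown because these genes had opposite and large slopes on Hoxb13 in the results that follow. Each window runs from 250 bases before to 50 bases after the RefSeq gene start on the GRCr8 assembly, 5′ to 3′ on the gene's strand. B3gnt7 lies on the plus strand of chromosome 9 (chr9:94403947-94404246) and Gcnt3 on the minus strand of chromosome 8 (chr8:79573508-79573807). Capitals mark the reverse complement of the posterior Hox motif CAATAAA.
B3gnt7: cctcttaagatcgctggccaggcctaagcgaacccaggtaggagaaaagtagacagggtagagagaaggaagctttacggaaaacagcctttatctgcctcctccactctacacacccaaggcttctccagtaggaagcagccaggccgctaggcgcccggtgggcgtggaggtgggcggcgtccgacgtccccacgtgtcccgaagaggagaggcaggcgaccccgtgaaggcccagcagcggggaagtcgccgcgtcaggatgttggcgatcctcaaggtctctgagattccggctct
Gcnt3: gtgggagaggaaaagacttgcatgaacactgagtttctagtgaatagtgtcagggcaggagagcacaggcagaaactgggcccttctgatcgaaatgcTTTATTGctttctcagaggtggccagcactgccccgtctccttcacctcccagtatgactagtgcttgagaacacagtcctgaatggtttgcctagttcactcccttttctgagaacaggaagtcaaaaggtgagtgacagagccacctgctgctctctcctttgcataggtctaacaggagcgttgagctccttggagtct
Both strands were searched for CAATAAA and TCGTAAA, which Hoxb13 and its paralogs bind, and for CCATAAA, bound by the intestinal factor Cdx2. The Gcnt3 window held CAATAAA once, from base 99 on the minus strand, and the B3gnt7 window held none of the 3. Among all 33469 RefSeq promoter windows of this length, 4.57% held CAATAAA, 0.598% held TCGTAAA and 3.07% held CCATAAA. Of the 14 genes with an adjusted p under 0.05 on either Hox gene, Chst5 included, 9 had a window in the table, and Gcnt3 was the one with a match. A match is a stretch of letters and not a measured site.

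No member passed the test for diet. None of the 58 member probes passed an adjusted p of 0.05 in limma, as none of the 13204 kept probes did (0%). At an unadjusted p under 0.05 the count was also 0 of 58, against 6.63% of the kept probes. The smallest adjusted p among members was 0.74. Differences, taken as high protein minus normal protein, were above 0 for 29 probes and below 0 for 29, with a median of -0.01 over members and 0.01 over all kept probes. The 95% interval was bounded by 1.5-fold on both sides for 42 of the 58 probes and by 2-fold for 53, on values that include the background offset.

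**Figure D1:**
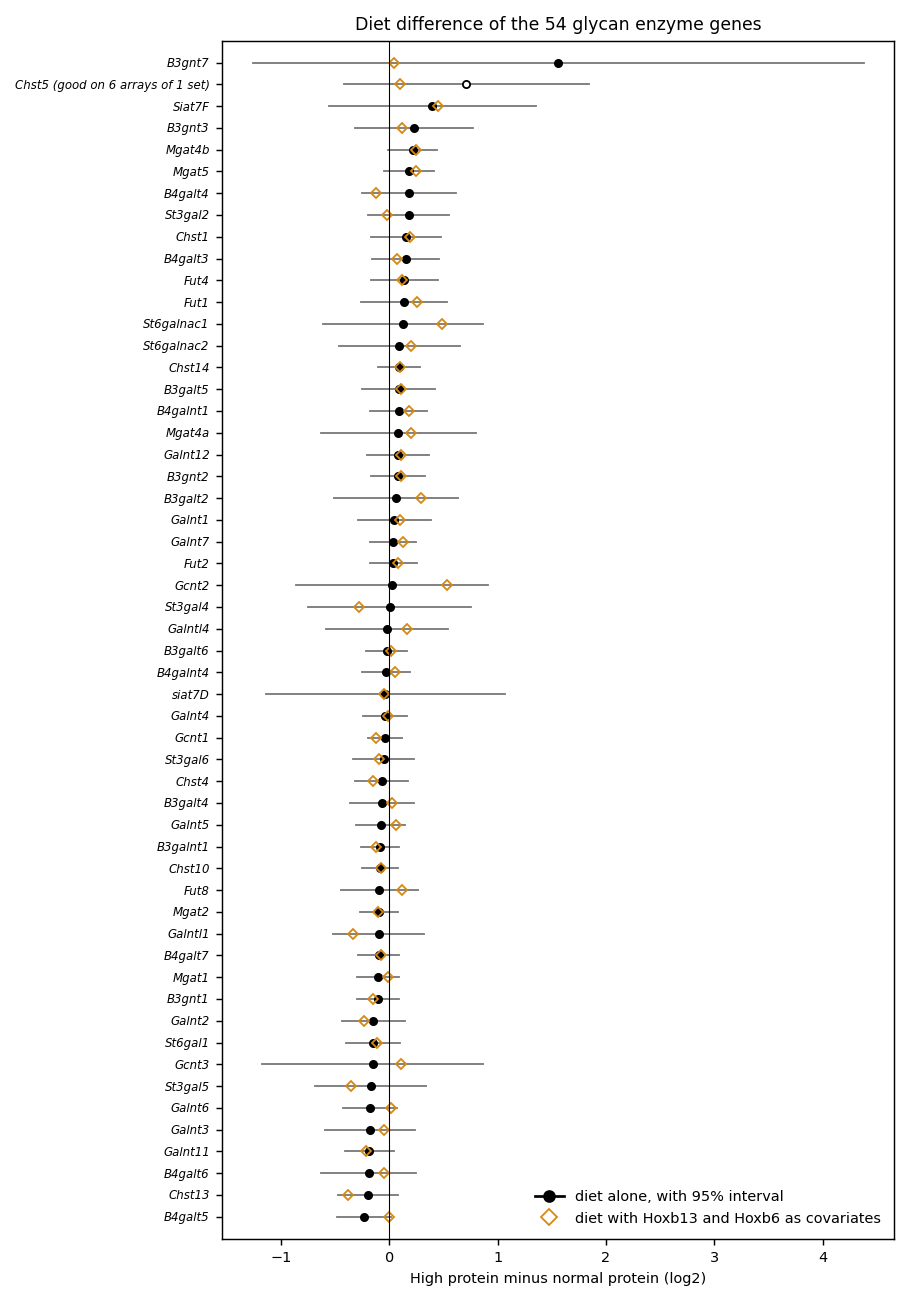
High protein minus normal protein for each of the 54 genes, in log2 units (n = 6 arrays per diet); black points and lines are the estimate and its 95% interval, open diamonds the estimate once Hoxb13 and Hoxb6 are covariates. Every interval includes 0, the widest belongs to B3gnt7 at 1.56, and its diamond lies at 0.05. The open circle is Chst5, whose spot was not flagged good on 6 of the arrays.

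The largest diet difference belonged to B3gnt7, which adds N-acetylglucosamine to extend poly-N-acetyllactosamine chains and prefers sulfated acceptors. Its level on the normal-protein arrays ran from 7.24 to 13.20 with a median of 9.66. On the high-protein arrays it ran from 7.54 to 13.65 with a median of 13.08. The ranges overlapped almost fully, and the difference was 1.56 ± 1.30 (SE, n = 6 per diet), with an adjusted p of 0.81 in limma. It was 2.03, 2.38 and 0.27 within slides 1, 2 and 3, and 2.38 without high protein replicate 3. With Hoxb13 and Hoxb6 as covariates the difference was 0.05 ± 0.20 (SE), with an adjusted p of 0.98.

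Diet differences of the other marker genes were small beside their spread. B3gnt3, an enzyme that elongates core chains, differed by 0.22 ± 0.25 (SE), with 6.97 to 8.06 on normal protein and 6.995 to 8.27 on high protein. It was 0.10 without normal protein replicate 6 and 0.39 without high protein replicate 3. Mgat4a, which adds a branch to N-linked glycans, differed by 0.08 ± 0.33 (SE), and the sign turned without normal protein replicate 2 (-0.01) or high protein replicate 3 or 4 (-0.13 each). For siat7D, the array's name for the sialyltransferase St6galnac4, the difference was -0.04 ± 0.51 (SE), between ranges of 8.62 to 10.95 and 8.36 to 10.95. Its sign turned to 0.01 with 75th percentile scaling and to 0.14 with median scaling. It also turned without normal protein replicate 1 (0.14) or 2 (0.09) and without high protein replicate 3 (0.23) or 4 (0.29).

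Among other members with the smallest unadjusted p for diet, none passed after adjustment. Mgat4b, another N-glycan branching enzyme, ran from 6.37 to 6.66 with a median of 6.46 on normal protein and from 6.56 to 7.16 with a median of 6.62 on high protein. The difference of 0.22 ± 0.11 (SE) dropped to 0.12 without high protein replicate 3, the array at 7.16. Mgat5, which adds the β1,6 branch of N-glycans, differed by 0.18 ± 0.11 (SE), from a median of 6.53 to one of 6.73. B4galt5, a galactosyltransferase of glycolipids and N-glycans, differed by -0.24 ± 0.12 (SE), from a median of 9.50 on normal protein to 9.29 on high protein, and by -0.0001 with the Hox covariates. The initiating enzymes Galnt11 and Galnt6 differed by -0.18 ± 0.10 (SE) and -0.18 ± 0.12 (SE). The chondroitin sulfotransferase Chst13 differed by -0.19 ± 0.13 (SE), the sialyltransferase St6gal1 by -0.15 ± 0.11 (SE), and Mgat2, which starts the second antenna of N-glycans, by -0.10 ± 0.08 (SE).

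Levels of several members differed with the array's Hoxb13 level, which fell into separate ranges. Within each range of 6 arrays, the 10 members that pass below, Chst5 included, were correlated with Hoxb13 (20 relations). By exact Pearson test 3 had an unadjusted p under 0.05, and B3gnt7 at low Hoxb13 (0.99) had the smallest adjusted p, 0.0278. At high Hoxb13, Gcnt3 (0.70), siat7D (-0.11) and Siat7F (-0.53) ran against their slopes. A slope over all 12 arrays need not hold within a range. In a limma fit with diet as a covariate, 7 member probes had a slope above 0 that passed the adjusted threshold of 0.05, where 1.87% of kept probes did. A slope below 0 passed for 3 member probes, where 1.38% of kept probes did. One of the 7, Chst5, was flagged good on Hoxb13-high arrays alone and so was kept only through the arrays on which it was high, and its call is not read as a result. The other 6 were B3gnt7, B3gnt3, B4galt3, siat7D, Siat7F and St3gal2, and the 3 were Gcnt3, Mgat4a and St6galnac2. Among the 35 member probes flagged good on all 12 arrays 6 passed, 4 above 0 and 2 below, where 3.19% of all probes so flagged did. With slide as a block 5 of the 9 other than Chst5 passed, namely B3gnt7, B3gnt3, siat7D, Gcnt3 and Mgat4a, and the same 5 passed with any 1 array left out. With plain subtraction of the local background B3gnt7 and B3gnt3 alone of the 9 passed, as with the deposited log2 values. Under both, Mgat4a (adjusted p = 0.052 and 0.064), siat7D (0.058 and 0.068) and Gcnt3 (0.058 and 0.081) missed the limma threshold, so no slope below 0 passed there. The sign of the slope was the same within all 3 slides for 8 of the 9, all but Siat7F. These 9 were picked by their slopes over the same arrays, so this agreement is partly built in. Many members that did not pass, Galnt3 and Chst10 among them, also kept their sign in all slides, so the agreement is not particular to the 9. Without high protein replicate 3 the total count, Chst5 included, was 6, where 1.3% of all probes passed. A fit with Hoxb13, Hoxb6 and diet together was added after the data were seen. In it 1 member, B3gnt7, passed for Hoxb13 (0.0757% of all probes tested) and 0 passed for Hoxb6 (0.0227%). At an unadjusted p under 0.05 in limma the member counts were 11 and 13 of 58. The share of all probes at that cut was not computed, so these 2 counts are not read as a result. For the other members the slopes on the 2 Hox genes cannot be told apart.

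Hoxb6 lay between 10.82 and 10.95 on 3 arrays and between 6.51 and 7.49 on the rest. A slope on Hoxb6 thus mainly compares these sets of arrays, and a graded relation within either set was not tested. The slope on Hoxb6 passed for 4 member probes above 0, where 1.6% of kept probes did. It passed for 6 below 0, where 2.37% of kept probes did. Those above 0 were Gcnt3, St3gal5 and both probes of Mgat4a. Those below 0 were B3gnt3, Fut1, Galntl4, siat7D, Siat7F and St6galnac1. With slide as a block 4 passed, and 3 of the 10 kept the sign of the slope within all slides. On slide 1 Hoxb6 varied by only 0.61. The total count was 4 without high protein replicate 3 (1.34% of all probes) and 6 without normal protein replicate 6 (1.28%). With median scaling 2 slopes above 0 and 5 below 0 passed, where 1.73% of all probes did in either direction. Apart from Chst5, 14 probes of 13 genes passed in at least 1 of these fits, where 5.74% of kept probes did. In both fits 5 passed, where 1.47% of kept probes did, each with opposite signs on the same 12 arrays.

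**Figure D2:**
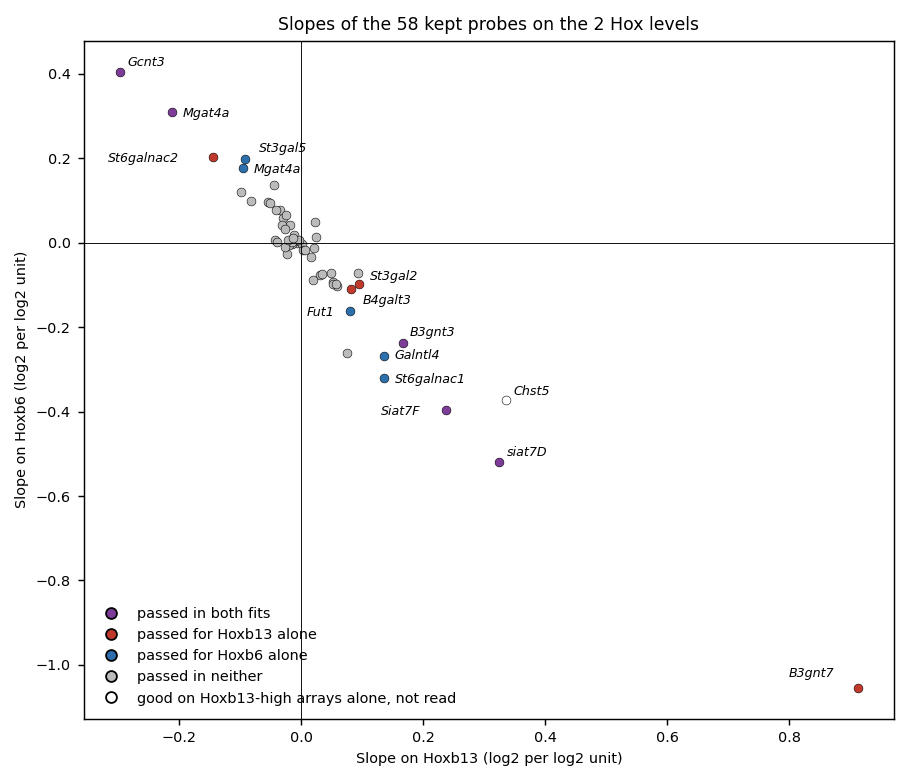
Each point is 1 of the 58 kept probes, with its slope on Hoxb13 (x axis) and on Hoxb6 (y axis) in log2 per log2 unit, each from a fit with diet. B3gnt7 stands at 0.91 and -1.05, Gcnt3 at -0.30 and 0.41, and most grey points lie near 0; the same 12 arrays set both axes. The open point is Chst5.

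Chain extension held the steepest slope. B3gnt7 stood at 12.77, 13.002, 13.16, 13.20, 13.50 and 13.65 on the 6 Hoxb13-high arrays. It stood at 9.40, 7.24 and 9.93 on normal protein replicates 3, 4 and 5, and at 7.86, 7.54 and 8.91 on the 3 Hoxb6-high arrays. The Hoxb13-high arrays lay above all others with no overlap, and the arrays of intermediate Hoxb13 were intermediate. The slope was 0.91 ± 0.03 (SE) per log2 unit of Hoxb13, with an adjusted p of 1.02e-08, the smallest of all tested probes in limma. Within slides it ran from 0.88 to 0.98. The B3gnt7 slope on Hoxb6 was -1.05 ± 0.28 (SE), with an adjusted p of 0.060, which passed without normal protein replicate 1 (adjusted p = 0.046) or replicate 4 (adjusted p = 0.017) and changed to 0.06 once Hoxb13 was in the fit.

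**Figure D3:**
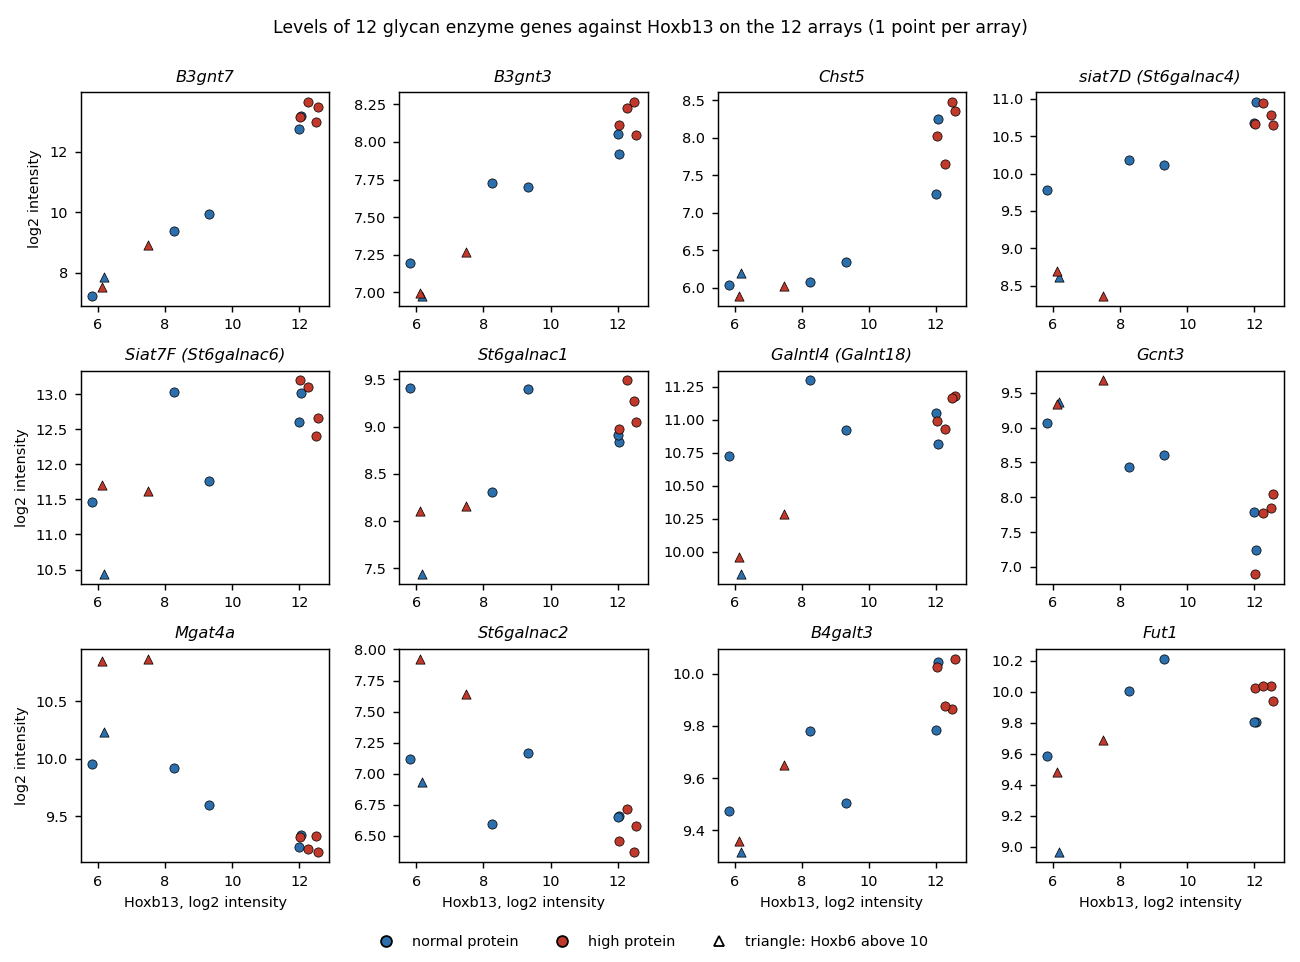
Log2 intensity of 12 genes (y axes, each on its own scale) against the log2 intensity of Hoxb13 (x axes), 1 point per array; blue is normal protein, red is high protein, and triangles are the 3 arrays with Hoxb6 above 10. B3gnt7 rises over the whole range from 7.24 to 13.65, Chst5, not flagged good on the 6 arrays of low Hoxb13, lies at or below 6.35 there, and the triangles stand low for siat7D and Galntl4 and high for Mgat4a.

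B3gnt3 moved in the same direction over a smaller range. It was 7.92, 8.06, 8.12, 8.05, 8.27 and 8.23 on the Hoxb13-high arrays, 7.73, 7.19 and 7.70 on the arrays low in both, and 6.97, 6.995 and 7.27 on the Hoxb6-high arrays. The Hoxb13-high arrays again lay above every other array. Its slope on Hoxb13 was 0.17 ± 0.02 (SE, adjusted p = 5.04e-04). On Hoxb6 the slope was -0.24 ± 0.04 (SE, adjusted p = 0.012), and it missed the threshold without high protein replicate 3 (adjusted p = 0.053) and with slide as a block (adjusted p = 0.057). A second B3gnt3 probe was flagged good on no array.

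B4galt3, which adds galactose to N-acetylglucosamine, changed least among the extension enzymes that passed. It ran from 9.78 to 10.06 on the Hoxb13-high arrays and from 9.32 to 9.78 on the others, with normal protein replicates 2 and 3 meeting near 9.78. The slope on Hoxb13 was 0.08 ± 0.02 (SE, adjusted p = 0.021). It did not pass without normal protein replicate 1 (adjusted p = 0.061), without high protein replicate 3 (adjusted p = 0.13) or with slide as a block (adjusted p = 0.058). The other kept B3GNT and B4GALT enzymes passed in neither fit, with Hoxb13 slopes of either sign. Among them B4galt6 ran from 6.96 to 7.57 on the Hoxb13-high arrays and from 7.61 to 8.27 on the others. Its slope on Hoxb13 was -0.10 ± 0.03 (SE, adjusted p = 0.10 in limma).

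The sulfotransferase Chst5 was flagged good on the Hoxb13-high arrays alone. On these 6 it stood at 8.25, 7.26, 8.03, 8.36, 8.48 and 7.65. On the other 6 it was flagged good on 0, and the intensities of those spots lay between 5.89 and 6.35. It therefore passed the filter through the arrays on which it was high. It enters the member counts and is drawn as an open point in the plots of diet differences and slopes. No fold, slope or test of Chst5 is read as a result. Chst5 adds sulfate to the N-acetylglucosamine of extended chains. None of the other 5 kept sulfotransferases (Chst1, Chst4, Chst10, Chst13 and Chst14) passed in either fit.

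Each St6galnac sialyltransferase with a kept probe is given next. Expression of siat7D (St6galnac4), which adds sialic acid to the N-acetylgalactosamine of an already sialylated core, was 10.95, 10.67, 10.66, 10.64, 10.78 and 10.95 on the Hoxb13-high arrays. It was 10.17, 9.78 and 10.12 on the arrays low in both and 8.62, 8.70 and 8.36 on the Hoxb6-high arrays. The 3 sets did not overlap. Its slopes were 0.32 ± 0.04 (SE, adjusted p = 0.0017) on Hoxb13 and -0.52 ± 0.06 (SE, adjusted p = 0.00225) on Hoxb6, and both passed with any 1 array left out and with slide as a block.

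Siat7F, the array's name for St6galnac6, which sialylates glycolipids and Lewis-type chains, is the direct neighbour of St6galnac4 with 0 protein-coding genes between them. It was 13.02, 12.60, 13.19, 12.67, 12.41 and 13.10 on the Hoxb13-high arrays and 10.44, 11.70 and 11.61 on the Hoxb6-high ones. Normal protein replicate 3, low in both Hox genes, was also at 13.02, so the sets overlapped. The slope on Hoxb13 was 0.24 ± 0.06 (SE, adjusted p = 0.044) and passed in 1 of 12 fits with an array left out, the one without normal protein replicate 3, with adjusted p from 0.0116 to 0.115 over the 12. On Hoxb6 the slope was -0.40 ± 0.08 (SE, adjusted p = 0.025). It missed the threshold without normal protein replicate 6 (adjusted p = 0.17), without high protein replicate 3 (adjusted p = 0.056) and with slide as a block (adjusted p = 0.11).

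St6galnac1 and St6galnac2, another pair of direct neighbours, had slopes of opposite sign on each Hox gene, but only 1 of the pair passed on each. The slope of St6galnac1 on Hoxb13, 0.14 ± 0.06 (SE), had an adjusted p of 0.27 in limma. St6galnac1 makes the sialyl-Tn antigen of goblet cell mucin. It was 7.44, 8.11 and 8.16 on the Hoxb6-high arrays, 8.30, 9.41 and 9.39 on those low in both, and 8.84 to 9.49 on the Hoxb13-high arrays. The Hoxb6-high arrays thus lay lowest, and the slope on Hoxb6 was -0.32 ± 0.06 (SE, adjusted p = 0.014). It missed the threshold without normal protein replicate 6, at -0.27 (adjusted p = 0.12). St6galnac2, which sialylates the core N-acetylgalactosamine too, was 6.94, 7.93 and 7.64 on the Hoxb6-high arrays, 6.60, 7.12 and 7.17 on those low in both, and 6.37 to 6.71 on the Hoxb13-high arrays. The St6galnac2 probe was flagged good on 4 of the Hoxb13-high arrays and on 5 of the others. The arrays low in both overlapped each of the other sets. Its slope on Hoxb13 was -0.15 ± 0.03 (SE, adjusted p = 0.028). It was not called in 5 of 12 fits with an array left out (adjusted p from 0.052 to 0.19), those without high protein replicates 2 to 6, or with slide as a block (adjusted p = 0.11). The slope of St6galnac2 on Hoxb6, 0.20 ± 0.06 (SE), had an adjusted p of 0.071.

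A pair of α2,3-sialyltransferases passed narrowly. St3gal2, which caps the galactose of core chains, ran from 7.17 to 7.62 on the Hoxb13-high arrays and from 6.66 to 7.05 on the others. The St3gal2 probe was flagged good on all 6 Hoxb13-high arrays but on 4 of the others, and a second probe on 0 arrays. The slope was 0.09 ± 0.02 (SE, adjusted p = 0.0375), and it did not pass in 7 of 12 fits with an array left out, those without normal protein replicates 1 and 5 and high protein replicates 2 to 6 (adjusted p up to 0.17), or with slide as a block (adjusted p = 0.087). St3gal5, which makes the ganglioside GM3, was at 8.72 on normal protein replicate 6 and between 6.99 and 7.59 on the other 11 arrays. Its slope on Hoxb6 was 0.20 ± 0.05 (SE, adjusted p = 0.0498) and dropped to 0.07 without that array (adjusted p = 0.465). It missed the threshold in 9 of 12 fits with an array left out, the exceptions being those without normal protein replicate 1 and high protein replicates 1 and 4.

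Both Gcnt3 and Mgat4a, which branch glycans, were higher where Hoxb13 was low. Gcnt3, which forms the core 2 and core 4 branches of mucin chains, was 7.25, 7.78, 6.89, 8.05, 7.84 and 7.78 on the Hoxb13-high arrays. It was 8.43, 9.07 and 8.60 on the arrays low in both and 9.37, 9.33 and 9.68 on the Hoxb6-high arrays. The 3 sets did not overlap, and the Hoxb13-high arrays were lowest. The slope on Hoxb13 was -0.30 ± 0.04 (SE, adjusted p = 0.0029). The slope on Hoxb6 was 0.41 ± 0.10 (SE, adjusted p = 0.038), and 8 of 12 fits with an array left out did not pass (adjusted p up to 0.11), the exceptions being those without normal protein replicates 1, 3, 4 and 5. It also missed the threshold with slide as a block (adjusted p = 0.15).

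Mgat4a was 9.34, 9.23, 9.33, 9.19, 9.33 and 9.22 on the Hoxb13-high arrays, a narrow band. It was 9.92, 9.95 and 9.60 on the arrays low in both and 10.24, 10.85 and 10.87 on the Hoxb6-high arrays, again with no overlap. The slopes were -0.21 ± 0.03 (SE, adjusted p = 0.0014) on Hoxb13 and 0.31 ± 0.06 (SE, adjusted p = 0.014) on Hoxb6. The latter missed the threshold without high protein replicate 3 (adjusted p = 0.056) and with slide as a block (adjusted p = 0.063). A second, dimmer Mgat4a probe had slopes of the same signs, -0.10 ± 0.02 (SE, adjusted p = 0.059) and 0.18 ± 0.03 (SE, adjusted p = 0.0068). The branching enzymes Mgat1, Mgat2, Mgat4b, Mgat5, Gcnt1 and Gcnt2 passed in neither fit. Gcnt2, which branches poly-N-acetyllactosamine, ranged from 8.09 to 10.56 over the arrays.

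Galntl4, which RefSeq names Galnt18, was the single member of the GALNT family to pass. It was 9.83, 9.96 and 10.29 on the Hoxb6-high arrays and between 10.73 and 11.30 on the other 9, with no overlap. The slope on Hoxb6 was -0.27 ± 0.03 (SE, adjusted p = 0.0021), and it passed with any 1 array left out and with slide as a block. The other 10 kept genes of the GALNT family did not pass for either Hox gene, among them Galnt3 (8.47 to 9.68 over the arrays), Galnt12 (9.56 to 10.40) and Galnt7 (6.31 to 6.92). Fut1, which makes the H antigen by adding α1,2-linked fucose, was 8.96, 9.48 and 9.69 on the Hoxb6-high arrays and 9.59 to 10.21 on the rest. Its slope on Hoxb6 was -0.16 ± 0.03 (SE, adjusted p = 0.029), and it missed the threshold without normal protein replicate 6 (-0.11, adjusted p = 0.24), without high protein replicate 3 (adjusted p = 0.078), with median scaling (adjusted p = 0.051) and with slide as a block (adjusted p = 0.078). Fut2, the secretor enzyme of the same linkage, had slopes near 0 on both Hox genes and levels between 7.29 and 7.85.

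A further 43 member genes had no kept probe. Of the 58 probes left out, 49 were flagged good on 0 arrays and 1, for B3galt6, on 5, while 2 kept probes, Chst5 and St3gal6, were just inside the limit with 6. All 6 St8sia genes, which build polysialic acid and disialic gangliosides, were among those without a kept probe. B3gnt6, which makes the core 3 chain typical of colonic mucin, was flagged good on 2 arrays. B4galt1 was flagged good on none. These genes are not described further.

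Lists of genes for other steps of the same pathway were read in the same fits, and diet called 0 of their 74 kept genes in limma, with 5 at an unadjusted p under 0.05. At that unadjusted cut 25 of the 74 counted for Hoxb13 and 25 for Hoxb6, and the share of all probes was not computed. Among 5 mucin core proteins with a kept probe, Muc2, the gel-forming mucin of goblet cells, had a slope of -0.20 ± 0.05 (SE) on Hoxb13 (adjusted p = 0.042), and 0 slopes above 0 passed. On Hoxb6 the membrane mucins Muc1 (-0.45 ± 0.06, SE) and Muc4 (-0.44 ± 0.07, SE) passed below 0 and none above. Of 22 kept genes of nucleotide sugar and sulfate donor supply, Cmas, which activates sialic acid, passed above 0 on Hoxb13 and the galactose kinase Galk1 below. On Hoxb6 Nans, a sialic acid synthase, and Fcsk, a fucose kinase, passed below 0. Of 11 Golgi nucleotide sugar carriers, Slc35b3, a sulfate donor carrier, passed below 0 on Hoxb13 and none passed on Hoxb6. Of 9 genes of N-glycan trimming, the mannosidase Man2a1 passed above 0 on Hoxb13 and below 0 on Hoxb6. Among glycan breakdown genes, the fucosidase Fuca2 and the galactosidase Glb1 passed above 0 on Hoxb13, and both passed below 0 on Hoxb6, as did Fuca1. Of 10 further glycosyltransferases outside the member name rule, the blood group gene Abo passed below 0 on Hoxb13, and none passed on Hoxb6. Over all kept probes 3.25% passed on Hoxb13 and 3.97% on Hoxb6, in either direction. Some of these calls were narrow, such as Cmas on Hoxb13 (adjusted p = 0.047 in limma) and Fuca1 on Hoxb6 (0.045). The alternative settings were not read for these lists or for the cell markers below.

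Markers of other cells were read on the same arrays. The mean level of 10 epithelial markers ran from 11.42 to 12.16 over the 12 arrays and none of the 10 passed for Hoxb13 or Hoxb6, with 2 and 3 at an unadjusted p under 0.05 in limma. The mean of 10 smooth muscle markers was 10.67 to 11.44 on the Hoxb6-high arrays, 11.37 to 11.76 on the Hoxb13-high arrays and 11.60 to 11.88 on those low in both. Signal for these markers was thus present on every array, and its cell source was not tested. Des and Synm of that list passed below 0 on Hoxb6 (2 of 10). At an unadjusted p under 0.05 in limma the muscle list had 1 marker for Hoxb13 and 4 for Hoxb6. The mean of 9 goblet cell markers was 10.44 to 11.26 on the Hoxb13-high arrays, 11.65 to 11.82 on those low in both and 10.65 to 11.46 on the Hoxb6-high arrays. Among these 9, Muc2 passed below 0 on Hoxb13, and Tff3 passed below 0 and Spink4 above 0 on Hoxb6. At an unadjusted p under 0.05 in limma the goblet list had 5 markers for Hoxb13 and 6 for Hoxb6. The share of all probes at that cut was not computed for either Hox gene. Spink4 stood at 13.26 on normal protein replicate 6 and at or below 8.83 on every other array. Of the 9 macrophage, 9 fibroblast, 3 B and plasma cell and 2 T cell markers kept, 0 passed for either Hox gene in limma, with 0 at an unadjusted p under 0.05 for Hoxb13 and 5 for Hoxb6. B and plasma cell markers had a mean of 6.55 to 7.18 on the Hoxb6-high arrays, 6.76 to 8.60 on the Hoxb13-high arrays and 7.80 to 8.64 on those low in both. The part of these cell types in the slopes of the member genes was not tested, and in bulk RNA fewer cells of a type and less RNA per cell cannot be told apart.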

How the data were processed

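Per the file headers, the authors scanned 12 arrays at 532 nm with GenePix Pro 6.1.0.4, and deposited spot intensity on a linear scale. A deposited table of log2 values, for which the submitters' processing notes name RMA, had IDs displaced by 1 row and served only as an alternative with the IDs moved. Here the mean pixel was corrected with normexp (offset 50) against the median local background, quantile normalised on the log2 scale, and averaged over the spots of a probe. Probes needed flag 100 on a share of 0.5 or more of their spots, on 6 or more arrays. limma 3.58.1 in R 4.3.3 (lmFit, eBayes) fitted diet alone, and diet with the array's Hoxb13 or Hoxb6 level, over all kept probes except that Hox gene's own, with Benjamini-Hochberg adjustment over all and a threshold of 0.05. The fit was tested on simulated data. Members and lists were chosen with earlier results of these data known. Results for 1 gene of the lists are not reported here. Every kept member may be named, and array values are given for the 4 markers and for members among the 10 of smallest p in a fit. Where a gene had several kept probes, the one of highest mean gave its value. Genes of similar profile are not listed, since the arrays fall into separate sets by Hox level. Alternatives changed the background, scaling, filter, blocks, covariates and arrays. The number of arrays limits precision.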

Additional observations from a re-analysis of the deposited data

Results flagged for a closer look

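In 2 of 44 sets of 6 arrays of a diet (22 genes), 1 array stood far from the other 5; chance flags about 1 in 20 such sets. Mgat4b was at 7.16 on high protein replicate 3, with the other 5 high-protein arrays between 6.56 and 6.66. St3gal5 was at 8.72 on normal protein replicate 6, with the other 5 normal-protein arrays between 6.99 and 7.32.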

How the results depend on the processing

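The count of member probes past the threshold for diet was 0 under every alternative run in limma, with 0 to 4 at an unadjusted p under 0.05. Counts here include Chst5, and each share in brackets is that of all probes tested. For Hoxb13, 10 in the main setting (3.25%), it was 3 with local background subtracted (0.576%), 6 with probes flagged good on all 12 arrays (35 members tested, 3.19%), 6 with slide as a block (1.57%), 1 with both Hox levels in 1 fit (0.0757%) and 2 with the deposited value table (0.424%). No slope below 0 passed with local background subtracted, the deposited table, the replicate block or both Hox levels. With single arrays left out it ran from 6 to 12 (1.3% to 4.07%). For Hoxb6, also 10 (3.97%), it was 4 with slide as a block (0.788%) and 4 with no diet term (0.947%). It was 0 with both Hox levels in 1 fit (0.0227%) and 4 to 12 with single arrays left out (shares from 1.28% to 5.98%). With the replicate number as a block the counts were 2 for Hoxb13 (0.129%) and 0 for Hoxb6 (0.0606%). At an unadjusted p under 0.05 in limma 20 and 19 members passed there, and the share of all probes at that cut was not computed. The labels do not say whether the replicate numbers pair the samples. Same-numbered arrays correlated at 0.38, 0.29, -0.10, 0.22, -0.01 and -0.10 after removal of diet means. Both arrays of replicates 1 and 2 were Hoxb13-high, and those of replicates 3 to 6 fell into different Hox sets. These correlations therefore cannot settle whether the samples are paired. Signs turned for the diet difference of Mgat4a (-0.13 to 0.21 with single arrays left out), siat7D (0.012 with 75th percentile scaling, 0.14 with median scaling, -0.32 to 0.29 with single arrays left out) and Galnt6 (0.017 with Hox covariates), and for the Hoxb6 slope of B3gnt7 (0.061 with both Hox levels). Of 256 alternatives for named Hoxb13 slopes 190 kept direction and call and 66 lost the call. These include 22 and 3 for Chst5, whose call is not read. Of 259 for Hoxb6 slopes, 184 kept both, 70 lost the call and 4 gained it. Causes of these changes were not tested. The offset of 50 shrinks the fold of dim probes such as Mgat4b and St6galnac2.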
